A study of Mus musculus with 4 samples.

Results

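The Kcnq1ot1 domain is a cluster of imprinted genes near the distal end of mouse chromosome 7. Its members here were the 98 probes, of 97651 on the array, that lie at chr7:142700001-143400000 in the positions of the files, a window of 700 kb. Of these, 96 fell into 10 runs, among 14121 runs on the whole array, where a run is at least 3 probes with neighbouring starts at most 500 bp apart. The other 2 probes lay outside runs. The files name no genome build and pair no gene with a probe, and the window was set with the positions taken as mouse build mm8. Genes were attached to runs by spacing: 1 common shift placed a run centre within 1082 bp of the 5′ end of 8 of the 9 listed genes in the RefSeq gene table for GRCm38, and the next best shift matched 2. The 5′ ends of Kcnq1, Cdkn1c and Nap1l4 in this match rest on their commonly known strands, since the tables used here gave none for them. Slc22a18 had no run, and its 5′ end lay 8.67 kb from the nearest probe.

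DNA methylation was measured in mouse embryonic stem cells on 4 arrays. They were wild type J1 cells, the Parp-1 deficient clones 210-58 and 226-47, both derived from J1, and J1 cells treated with the Parp inhibitor PJ34. Each clone is a single line on a single array, and the labels give neither the dose nor the duration of PJ34. Parp-1 builds poly(ADP-ribose) chains on nuclear proteins, and PJ34 blocks this reaction. Sonicated DNA pulled down with an antibody against 5-methylcytidine (IP, Cy5) was hybridised with sonicated whole DNA of the same cells (Cy3) to a CpG island array. Values are the log2 ratio of IP to whole DNA, centred on each array's median over probes, so 0 is a typical probe, and a run's value is the mean over its probes.

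Kcnq1ot1 is a long noncoding RNA transcribed antisense from within the gene Kcnq1. Its promoter island is the imprinting control region of the domain: the maternal copy acquires methylation in the oocyte and is silent, while the unmethylated paternal copy is transcribed and represses neighbouring genes on the same chromosome, among them Cdkn1c, Phlda2, Slc22a18, Kcnq1 and, in placenta, Ascl2. In cells that keep the imprint, MeDIP of this island therefore reads a mixture of a methylated and an unmethylated copy.

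RefSeq promoter sequences (GRCm38.p6, 250 bases before to 50 after a gene's start) were at hand for 6 of the 9 genes, namely Ascl2, Cd81, Tssc4, Kcnq1ot1, Slc22a18 and Phlda2. Kcnq1, Cdkn1c and Nap1l4 had no entry. The Kcnq1ot1 sequence is shown because the largest change of the domain lay in the run matched to this gene's start. Those of Ascl2 and Phlda2 are shown because the runs matched to these genes were low in wild type cells. All are 5′ to 3′ on the minus strand, with CpG dinucleotides, the targets of methylation, in capitals. Kcnq1ot1 is the whole 300 bases at chr7:143296498-143296797. Ascl2 and Phlda2 are the 250 bases before the start, at chr7:142969265-142969514 and chr7:143502525-143502774. These GRCm38.p6 positions are not those of the probes. By the spacing match, the 5′ ends lay past the run centres on the high-coordinate side. The distances were 638 bp for Kcnq1ot1, 836 bp for Ascl2 and 884 bp for Phlda2. The Phlda2 bases, and most Kcnq1ot1 bases before the start, would then lie beyond the last probe of the run. The sequences are therefore not the measured stretches themselves.
Kcnq1ot1: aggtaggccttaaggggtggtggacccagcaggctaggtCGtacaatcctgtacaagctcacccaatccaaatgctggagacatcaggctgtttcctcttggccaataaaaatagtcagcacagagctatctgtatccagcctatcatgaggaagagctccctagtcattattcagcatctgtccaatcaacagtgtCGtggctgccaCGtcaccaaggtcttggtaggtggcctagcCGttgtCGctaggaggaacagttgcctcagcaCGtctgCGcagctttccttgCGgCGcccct
Ascl2: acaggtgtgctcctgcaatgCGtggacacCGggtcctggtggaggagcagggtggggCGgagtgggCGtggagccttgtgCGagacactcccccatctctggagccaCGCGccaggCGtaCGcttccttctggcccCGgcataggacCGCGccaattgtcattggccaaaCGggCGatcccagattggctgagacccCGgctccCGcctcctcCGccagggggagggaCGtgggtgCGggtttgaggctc
Phlda2: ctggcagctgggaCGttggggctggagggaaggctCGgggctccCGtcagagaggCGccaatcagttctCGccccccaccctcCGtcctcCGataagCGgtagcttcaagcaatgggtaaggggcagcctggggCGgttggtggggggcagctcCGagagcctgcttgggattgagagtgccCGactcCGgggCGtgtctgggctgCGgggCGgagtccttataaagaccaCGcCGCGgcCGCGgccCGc

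The Kcnq1ot1 window held 9 CpGs, a number reached by 45.8% of the 32851 promoter windows in the table, which had a median of 7. Over the same 300 bases Ascl2, Cd81 and Tssc4 held 23 each, Phlda2 held 26 and Slc22a18 held 2. The motif CCAAT, the box bound by the factor NF-Y, was searched on both strands as CCAAT or ATTGG. It occurred 3 times in the Kcnq1ot1 window and 3 times in that of Ascl2, a count reached by 3.37% of all windows, once in Tssc4 and Phlda2, and not in Cd81 or Slc22a18. The hexamer TGCCGC, which the imprint-protecting protein ZFP57 recognises when methylated, was searched as TGCCGC or GCGGCA and was in none of the 6 windows, against 11.6% of all windows. These matches describe the letters of the windows only.

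All 98 probes had a Cy3 signal well above background on all 4 arrays, and 88 had such a Cy5 signal on all 4. The missing Cy5 signals were at probes of low log ratio, in the Ascl2, Cd81, Tssc4 and Phlda2 runs. Clone 210-58 lay on the slide of the wild type array, and clone 226-47 on that of the PJ34 treated array. The comparison of clone 210-58 with wild type was thus made within a slide, while clone 226-47 and PJ34 cannot be told apart from the slide when set against wild type. Precision is limited by the number of arrays, and all comparisons with wild type share its single array.

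The Kcnq1ot1 island was strongly enriched for methylated DNA in wild type cells, in clone 226-47 and after PJ34, and lay at the level of a typical probe in clone 210-58. The run at chr7:143104693-143106020 (8 probes) was at 3.55 in wild type cells, above 96.0% of all runs of that array. It was at -0.36 in clone 210-58, 3.72 in 226-47 and 4.59 after PJ34. In clone 210-58 it lay above only 36.5% of all runs, whereas in clone 226-47 and in PJ34 treated cells it lay above 97.9%. The SD over its 8 probes was 0.14 in wild type cells, 0.49 in 210-58, 0.23 in 226-47 and 0.31 after PJ34. This spread over neighbouring probes does not measure variation between arrays or cultures.

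**Figure D1:**
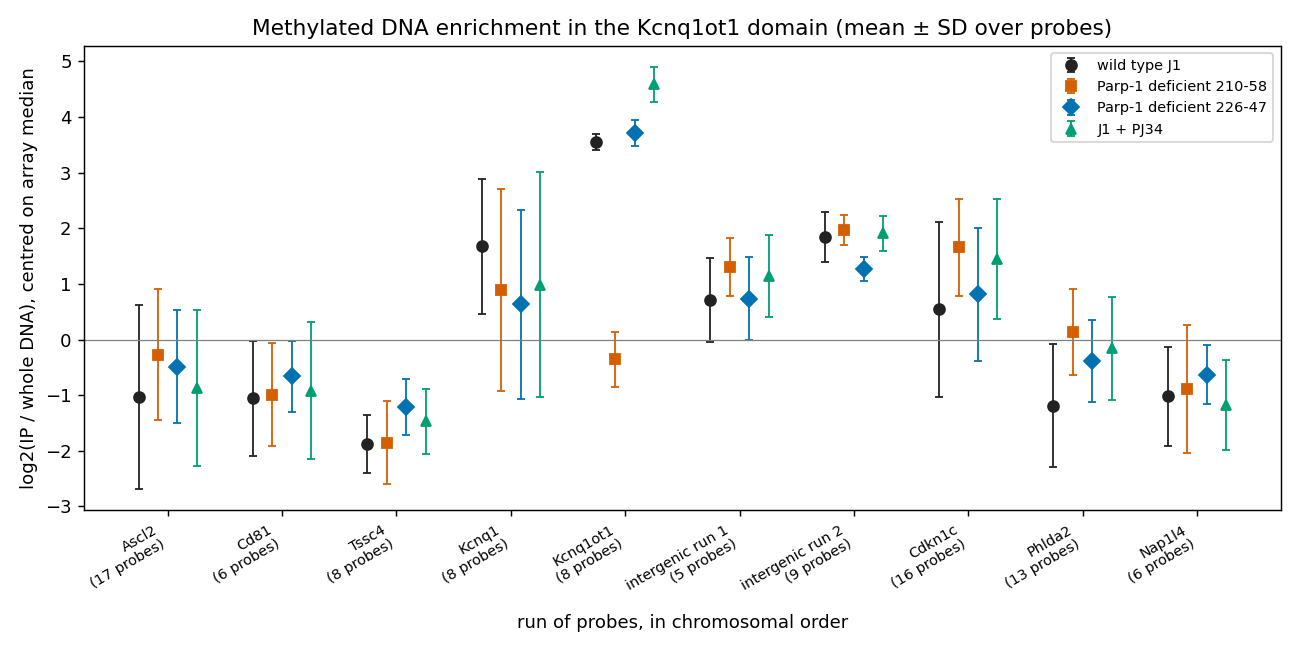
Mean log2 ratio of IP to whole DNA (vertical axis, centred on each array's median) for the 10 runs of the domain in chromosomal order, on the 4 arrays. Error bars are the SD over the probes of a run and not over samples. The Kcnq1ot1 run is at 3.55, 3.72 and 4.59 in wild type, clone 226-47 and PJ34 treated cells, and at -0.36 in clone 210-58.

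Every one of the 8 probes showed it. In wild type cells they ran from 3.38 to 3.84, in clone 226-47 from 3.24 to 3.96 and after PJ34 from 3.97 to 4.96. In clone 210-58 they ran from -1.30 to 0.37. Clone 210-58 was lower than wild type by 1 log2 unit or more at 8 of 8 probes, with differences from -4.69 to -3.19, against 7.08% of all probes of the array. The lowest probe of clone 210-58, at -1.30, was the last of the run, at chr7:143105976-143106020. The IP channel carried the change. The median processed Cy5 intensity over the 8 probes was 9212 in wild type cells, 484 in 210-58, 9467 in 226-47 and 15932 after PJ34, while the median Cy3 intensity was 935, 836, 889 and 849.

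**Figure D2:**
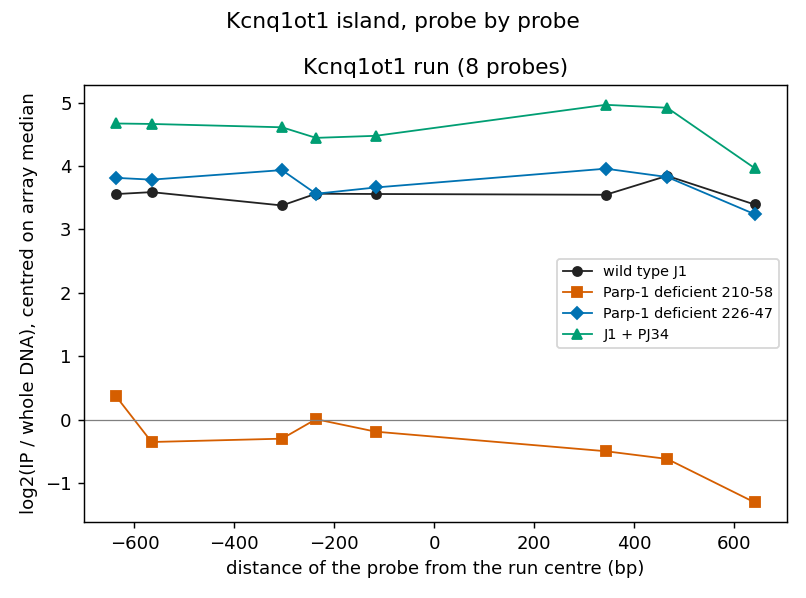
Log2 ratio of IP to whole DNA (vertical axis) of each of the 8 probes of the Kcnq1ot1 run against its distance from the run centre in bp, with 1 line per array. Probes of clone 210-58 lie between -1.30 and 0.37 and those of the other arrays between 3.24 and 4.96.

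The comparison of cells without Parp-1 with wild type called the Kcnq1ot1 run and no other run of the domain. The clones' mean was 1.68, a difference of -1.87 from wild type (SE 0.42, adjusted p = 0.0013 by limma with Benjamini-Hochberg adjustment over all 14121 runs). That is 1 of 10 runs called, against 2.78% of all runs. The mean describes neither clone: clone 210-58 differed from wild type by -3.91 and clone 226-47 by 0.17. The SD between the clones was 2.89, against a median of 0.21 over all runs, and the fitted SE does not show it because the fit took its spread from the general trend. With each run's own 2 clones as the spread, in a setting added after the data were seen, the adjusted p was 0.97. That setting has 1 residual degree of freedom and gave 0.942 or more for every run of the domain. Its value therefore does not measure the discordance of the clones here. Without clone 210-58 the difference was 0.17. The call was also lost after quantile normalization, intensity loess and scaling by the median absolute deviation. Over the alternative fits the adjusted p ran from 0.000542 to 0.973, with 0.682 after intensity loess the next largest. With a run gap of 250 bp the run split, and this range takes its piece at chr7:143105030-143105264. Another piece, chr7:143105678-143106020, differed by -2.16 (adjusted p = 3.79e-05 by limma).

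Between the clones, the Kcnq1ot1 run was the 1 run of 10 that differed by at least 1, against 2.39% of all runs. Clone 210-58 was lower by 4.08, and only 4 runs of the array, this one included, had a fall of that size or more from clone 226-47 to clone 210-58. Both clones are single arrays, so the difference has no replicate check.

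PJ34 treated cells were higher than wild type at the Kcnq1ot1 run by 1.03, with differences at single probes from 0.57 to 1.42. At least 1 separated them at 5 of the 8 probes, against 5.73% of all probes that were higher by that much. Among the 1051 runs at 2.5 or more in wild type, 2.66% were raised as much under PJ34, and the median difference of those runs was 0.27. On the shared slide PJ34 treated cells lay 0.87 above clone 226-47, but after quantile normalization their levels were 4.15 and 4.13. There was 1 array on each side, so no test was made, and the difference was under 1 with normexp background correction, quantile or loess normalization, and scaling by the median absolute deviation.

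Among these 1051 highly enriched runs, 9 were below 0.5 in clone 210-58 and 6 of these were below 0.5 in clone 226-47 too. The Kcnq1ot1 run was among the other 3, which stayed at 2.5 or more in clone 226-47. No run showed the opposite pattern, at 2.5 or more in clone 210-58 and below 0.5 in clone 226-47, and none was below 0.5 after PJ34. These levels were chosen after the values were seen.

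**Figure D3:**
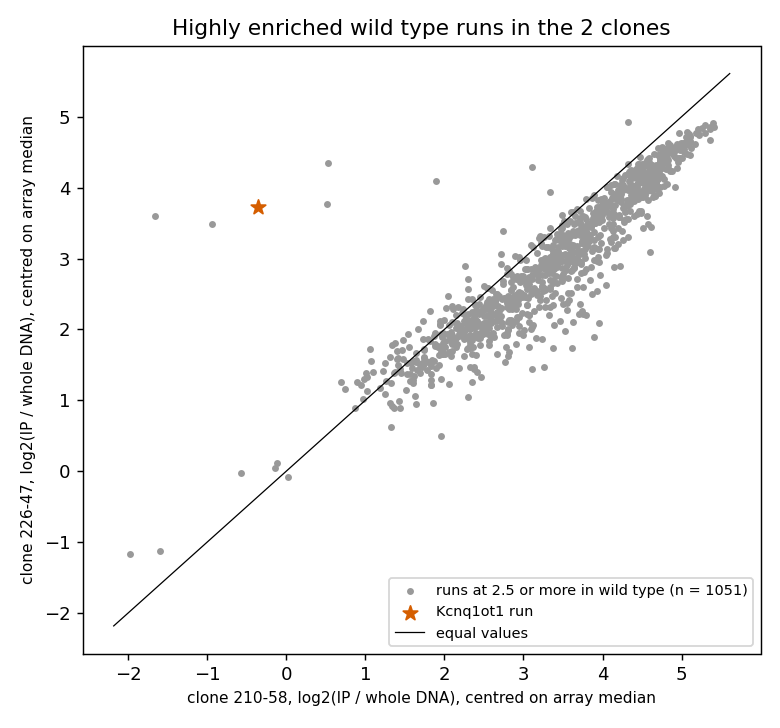
Log2 ratio of IP to whole DNA in clone 210-58 (horizontal axis) against clone 226-47 (vertical axis) for the 1051 runs at 2.5 or more in wild type cells, with a line of equal values. The Kcnq1ot1 run (star) is at -0.36 and 3.72, well above the line, beside a few other runs low in clone 210-58.

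The 5 runs elsewhere on the array nearest to it over the 4 arrays, by Euclidean distance, were all lowest in clone 210-58, a value that the distance itself uses, and were at -1.66 to 1.90 there against -0.36 for Kcnq1ot1. The nearest, at a distance of 1.13, was chr10:12780667-12781550 with 3.43 in wild type cells, 0.53 in 210-58, 4.35 in 226-47 and 4.29 after PJ34. By the same kind of spacing match, which placed 12 of 16 neighbouring runs at gene starts, it lay at Hymai and Plagl1, the latter a zinc finger transcription factor gene. Next came chr6:4697308-4698444 (distance 1.23), at Peg10, a gene derived from a retrotransposon, and its neighbour Sgce, with 2.78, -0.94, 3.49 and 3.87 on the arrays in the same order. A run on chromosome 18 of 3 probes (distance 1.33), which was not named, had 3.31, -1.66, 3.60 and 4.47. The last 2 of the 5 were chr6:58836201-58836830 (distance 1.82), at Nap1l5, with 2.84, 0.52, 3.77 and 3.17, and chr2:157251405-157252100 (distance 2.29), at Nnat, with 3.57, 1.90, 4.10 and 4.64. The likeness rests on 4 values per run. The spacing match of the Nap1l5 run was the weakest, with 5 of 9 neighbouring runs placed and 3 at the next best shift.

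In the islands of Cdkn1c and Phlda2, clone 210-58 had the highest and wild type the lowest value of the 4 arrays. The Ascl2 run and the run at chr7:143247134-143247915, which has no listed gene, had the same highest and lowest arrays. In the Kcnq1 run, by contrast, wild type was the highest array. A link of these values to the noncoding RNA was not tested. Cdkn1c encodes p57, an inhibitor of cyclin-dependent kinases that restrains growth. Its run at chr7:143268384-143270916 (16 probes) was at 0.54 in wild type cells, 1.66 in 210-58, 0.81 in 226-47 and 1.46 after PJ34. Clone 210-58 and PJ34 treated cells were thus the higher arrays, and clone 226-47 lay near wild type. The clones' mean differed from wild type by 0.69 (SE 0.32), which did not pass limma's test (adjusted p = 0.33). Clone 210-58 alone differed by 1.11, and the difference after PJ34 was 0.91.

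Within the Cdkn1c run the level was graded. The 4 probes at the low-coordinate end, on the side of the gene's body by its commonly known strand, ran from 1.93 to 3.52 in wild type, and their mean was 2.64 in wild type cells, 2.58 in 210-58, 2.19 in 226-47 and 2.77 after PJ34. There the arrays lay close together. The other 12 probes, toward and around the gene's start, had a mean of -0.16 in wild type cells, 1.35 in 210-58, 0.35 in 226-47 and 1.02 after PJ34. The split was made after the values were seen. Over the whole run 10 of 16 probes were higher in clone 210-58 than in wild type by at least 1, against 7.26% of all probes, 7 of 16 after PJ34, against 5.73%, and 1 of 16 in clone 226-47, against 5.94%. The largest difference was at chr7:143269151-143269195, from -0.91 in wild type to 1.68 in clone 210-58, 0.10 in 226-47 and 0.99 after PJ34. With runs joined only over gaps of at most 250 bp, a stretch of 6 probes in the start-side part, chr7:143269781-143270503, was called as higher in the clones, by 1.06 (adjusted p = 0.023 by limma). At these 6 probes clone 210-58 was above wild type by 1.06 to 2.18, but clone 226-47 by only 0.23 to 0.81. The clones' mean does not show this difference between them. For the largest piece of the run under each alternative the adjusted p was 0.111 to 0.997.

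**Figure D4:**
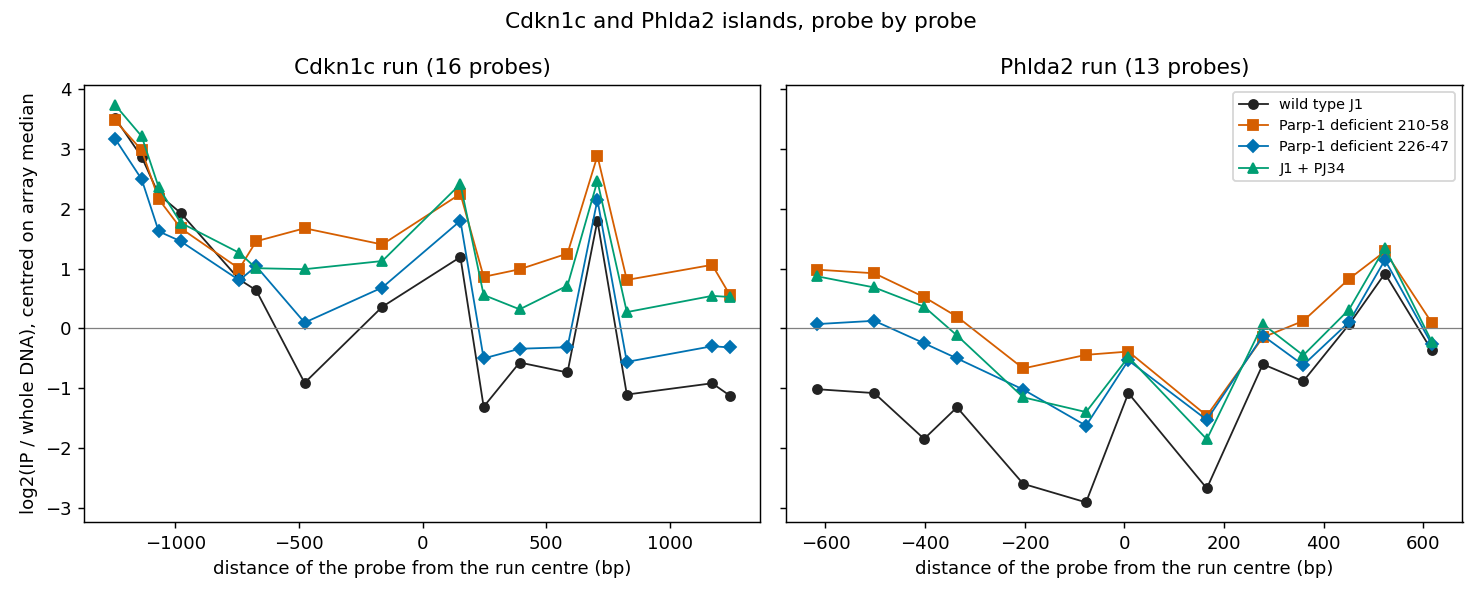
Log2 ratio of IP to whole DNA (vertical axis) of each probe of the Cdkn1c run (left, 16 probes) and the Phlda2 run (right, 13 probes) against its distance from the run centre in bp, with 1 line per array. In the Cdkn1c run the arrays meet at the left end, where wild type has 1.93 to 3.52, and part over the rest. In the Phlda2 run wild type is the lowest array at 13 of 13 probes.

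Phlda2, a pleckstrin-homology protein that limits placental growth, had its run at chr7:143311070-143312348 (13 probes). It was at -1.19 in wild type cells, 0.14 in 210-58, -0.39 in 226-47 and -0.16 after PJ34, so wild type was the lowest array. The clones' mean was above wild type by 1.06 (SE 0.34), just short of the threshold in limma's test (adjusted p = 0.055). On each of the 3 other arrays all 13 probes were above wild type. The share of all probes above wild type was not computed, and the 3 comparisons use the same wild type array. The difference was at least 1 at 8 probes in clone 210-58, against 7.26% of all probes. It was so at 6 in clone 226-47, against 5.94%, and at 6 after PJ34, against 5.73%. The first 6 probes held most of the difference, with means of -1.80 in wild type cells, 0.25 in 210-58, -0.54 in 226-47 and -0.13 after PJ34, a split made after the values were seen. The last 7 had means of -0.66, 0.05, -0.26 and -0.18. Cy5 was well above background at 11 of 13 probes in wild type and after PJ34, and at all 13 in the clones. Over the 11 probes that were so on all arrays the difference was 0.98 and passed the test (adjusted p = 0.012 by limma). It also passed after scaling by the median absolute deviation, and over all alternatives the adjusted p ran from 0.008 to 0.942. The upper value is from the fit without moderation of the variance, and the next largest was 0.33, after intensity loess.

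By size, 3 of 10 runs differed from wild type by at least 1 in clone 210-58, against 6.31% of all runs: Cdkn1c and Phlda2 were higher and Kcnq1ot1 was lower. In clone 226-47 it was 1 of 10, against 3.92%, the Kcnq1 run, which was lower. After PJ34 it was 2 of 10, against 3.70%, the Kcnq1ot1 and Phlda2 runs, both higher. The median difference from wild type over the 10 runs was 0.12 in clone 210-58, 0.33 in 226-47 and 0.28 after PJ34, beside -0.05, 0.07 and -0.01 over all runs.

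Ascl2 encodes a basic helix-loop-helix factor needed for the placenta. Its run at chr7:142776787-142778966 (17 probes) was at -1.04 in wild type cells, -0.28 in 210-58, -0.49 in 226-47 and -0.87 after PJ34. Both clones lay above wild type, by 0.76 and 0.55, with a difference of their mean of 0.65 (SE 0.37) that did not pass limma's test (adjusted p = 0.50). The probes of this island varied widely, from -3.85 to 0.89 in wild type, and those at the low end had the largest differences. Cy5 was well above background at 12 of the 17 probes in wild type cells, 16 in 210-58, 17 in 226-47 and 13 after PJ34. Over probes that were so on all arrays the levels were closer, with a difference of 0.24.

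Kcnq1 encodes a voltage-gated potassium channel of heart and inner ear. Its run at chr7:142916320-142917252 (8 probes) was at 1.67 in wild type cells, 0.89 in 210-58, 0.63 in 226-47 and 0.99 after PJ34, so wild type was the highest array. The clones' mean was below it by 0.92 (SE 0.33), and this did not pass limma's test (adjusted p = 0.11). Taking the median over probes in place of the mean, the difference was -1.18 and passed (adjusted p = 0.044 by limma), as it did after scaling by the median absolute deviation, at -0.87 (adjusted p = 0.044 by limma). Over all alternatives the adjusted p ran from 0.0437 to 0.942. The upper value is from the fit without moderation of the variance, and the next largest was 0.501, with normexp background correction.

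One probe of the Kcnq1 run stood apart, an observation made after the values were seen. At chr7:142916701-142916745 it was at 4.46 in wild type cells, 5.21 in 210-58, 4.76 in 226-47 and 5.69 after PJ34, the highest value of the window on every array. The other 7 probes had means of 1.28, 0.27, 0.04 and 0.32. Each of those 7 was lower on the 3 other arrays than in wild type, while the high probe was not.

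**Figure D5:**
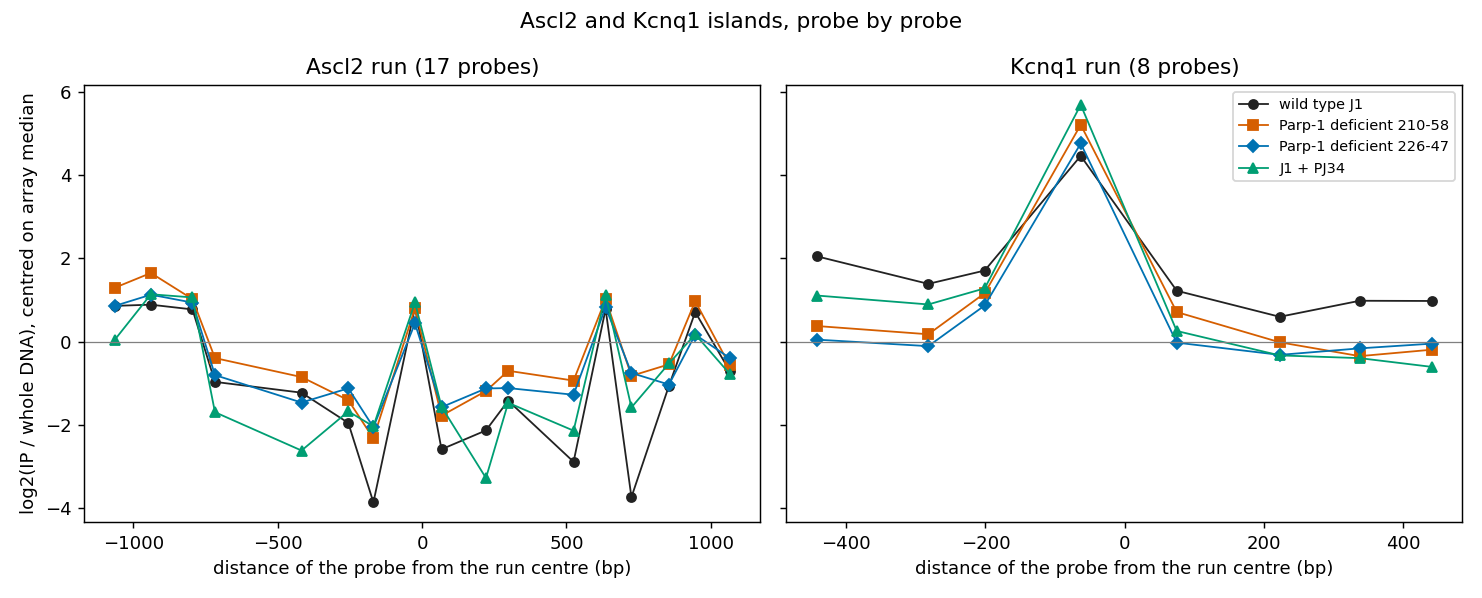
Log2 ratio of IP to whole DNA (vertical axis) of each probe of the Ascl2 run (left, 17 probes) and the Kcnq1 run (right, 8 probes) against its distance from the run centre in bp, with 1 line per array. In the Kcnq1 run 1 probe reaches 4.46 to 5.69 on the 4 arrays, and wild type is the highest array at the other 7.

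Between the end of Kcnq1 and Cdkn1c lay 2 runs with no listed gene, 10.6 and 17.9 kb past the Kcnq1 end by the spacing match. The first, chr7:143247134-143247915 (5 probes), was at 0.71 in wild type cells, 1.31 in 210-58, 0.74 in 226-47 and 1.14 after PJ34. The order of the arrays was the same as in the Cdkn1c run, with smaller differences, and the clones' mean differed by 0.32 (limma adjusted p = 0.89). The other, chr7:143254448-143255474 (9 probes), was enriched on all arrays, at 1.85, 1.97, 1.26 and 1.91 in the same order. Clone 226-47 was the lowest there, below clone 210-58 by 0.49 to 0.99 at single probes.

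The remaining islands were low on all arrays. Cd81 encodes a tetraspanin of the cell surface, and its run at chr7:142861989-142862794 (6 probes) was at -1.06 in wild type cells, -0.99 in 210-58, -0.66 in 226-47 and -0.92 after PJ34. Tssc4 had the lowest run, at chr7:142878474-142879419 (8 probes), with -1.87, -1.85, -1.22 and -1.47 in the same order. Nap1l4, a histone chaperone gene at the edge of the domain, had its run at chr7:143357692-143358803 (6 probes), with -1.02, -0.89, -0.63 and -1.18. None of the 3 passed limma's test, with differences of 0.23, 0.34 and 0.26 and adjusted p-values of 0.9997, 0.9997 and 0.9951. In each of them clone 226-47 was the highest array. Its array had the narrowest profile, with an interquartile range over all runs of 0.999 against 1.37 to 1.48 on the others, and the part of this width in these values was not tested. The 2 probes outside runs, both at about chr7:143274382-143274530 between Cdkn1c and Phlda2, lay at 0.60 to 1.77 on the 4 arrays.

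The whole DNA channel reads the number of copies of the domain. Each group of cells had a single array, so no test was made. Relative to wild type, the median Cy3 log2 signal over the 98 probes was -0.05 in clone 210-58 (SD over probes 0.19), -0.03 in clone 226-47 (SD 0.12) and -0.03 after PJ34 (SD 0.15). At the 6685 other probes of chromosome 7 the medians were -0.02, 0.02 and -0.01. At the Kcnq1ot1 run the differences were 0.02, 0.02 and 0.04, beside the log ratio difference of -3.91 in clone 210-58. With normexp background correction these Cy3 differences were 0.14, -0.005 and 0.005. This channel counts copies only and does not tell the maternal from the paternal one.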

How the data were processed

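The 4 arrays were 2-colour CpG island arrays, 1 per sample, with IP DNA in Cy5 and whole DNA in Cy3 per the labels, and no dyes were swapped. The deposited intensity values were written by Feature Extraction 10.7.3.1 per the file headers (the submitters' processing notes name Agilent Feature Extraction 9.1) and were background-subtracted, spatially detrended and scaled by a linear dye factor. The deposited ratio per spot equals processed Cy5 over Cy3, within 3.13e-08 on the log2 scale. The deposited flags of outliers, saturation and signal well above background were used as such.

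Here the log2 ratio was median-centred per array over 97651 probes, with no loess or quantile step. Probes with an outlier flag (30, none of them in the domain) or without a position (442) were left out. Runs were fitted with limma 3.58.1 in R 4.3.3 (lmFit, eBayes with trend) on both clones against wild type, with 1 residual degree of freedom and Benjamini-Hochberg adjustment over 14121 runs at 0.05. The spread is between clones and assumes that wild type cultures vary alike. Single arrays were compared by a size of 1 log2 unit. All runs of the domain were named. Single probes were given for runs called or past a size of 1, and like runs were the 5 nearest by Euclidean distance. The flank used to name like runs was set after seeing the data. The members and lists were chosen with earlier results of these data known. The RefSeq table's coordinates were used for names and spacing only. Alternatives were another background correction, normalization, run rule, probe filter and variance model, and each clone alone.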

Additional observations from a re-analysis of the deposited data

How the results depend on the processing

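The single call of the domain in the clones, the Kcnq1ot1 run, was kept in 7 of 11 alternative fits. These include the fits without the trend, with a 1000 bp gap, with probes well above background only and with outlier flags ignored. There the run kept its 8 probes and its difference of -1.87, so only the fitted spread and the adjustment could change. The count is therefore a weak measure of how firm the call is. Runs called in the domain numbered 0 after quantile normalization, after intensity loess and without moderation of the variance (added after seeing the data), 2 after scaling by the median absolute deviation (Kcnq1 and Phlda2), with medians over probes (Kcnq1 and Kcnq1ot1) or with probes well above background only (Kcnq1ot1 and Phlda2), and 3 with a run gap of 250 bp (2 pieces of Kcnq1ot1, 1 of Cdkn1c). The Kcnq1ot1 difference was -1.87 to -1.05 over these fits, with adjusted p from 0.000542 to 0.973. The fit without moderation gave 0.942 or more for every run of the domain. These ranges leave out the 250 bp piece at chr7:143105678-143106020, where the difference was -2.16 (adjusted p = 3.79e-05 by limma). Leaving out a clone gave 0.17 without 210-58 and -3.91 without 226-47, and 1 and 3 runs past a size of 1 in place of 2. Runs past a size of 1 after PJ34 numbered 0 with normexp or loess, 1 with quantile normalization, scaling or medians, and 4 with the 250 bp gap, in place of 2. Between the clones the 250 bp gap gave 3 in place of 1, and the Kcnq1ot1 difference stayed between -5.00 and -2.70 over 9 alternatives. For the counts of runs under each alternative, the share of all runs under the same setting is not given. The counts therefore do not show whether the domain differed from the array there. The 250 bp gap also splits runs, and the number of pieces in the domain is not given, so its counts have no denominator. With normexp the Kcnq1ot1 levels were 2.73 for wild type, -0.15 for 210-58, 2.94 for 226-47 and 3.65 for PJ34. With quantile normalization clone 226-47 was at 4.13 and PJ34 at 4.15. The cause of these shifts was not tested. The whole DNA medians of the domain against wild type were 0.0041 in 210-58, -0.06 in 226-47 and -0.03 after PJ34 with normexp, and -0.03, -0.06 and -0.02 when centred on the other probes of chromosome 7. A fit with slide as a block was not run, since 4 arrays leave it no residual degrees of freedom. No paired analysis was possible because the labels number no replicates across groups. Low Cy5 signals limit the log ratios of the Ascl2 and Phlda2 runs.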
